A study of Drosophila melanogaster with 2 samples.

Results

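Peaks of Ssrp that lie just upstream of a promoter transcribed in 1 direction were described in whole Drosophila melanogaster embryos. A peak belonged to the set when its summit, the base its peak caller took as its highest point, lay 1 to 500 bp upstream of the nearest annotated transcription start site (TSS). That TSS had to have no TSS on the opposite strand within 1000 bp, and is called a single-strand TSS here. Of the 5445 peaks that passed the authors' threshold on the irreproducible discovery rate (IDR, which scores how reproducibly peaks rank in replicates), 975 met the rule, which is 17.9%. They lay at 953 TSSs of 932 genes, 471 on the plus strand and 504 on the minus strand. At 22 TSSs there were 2 members. Apart from these 975, the list held 212 peaks within 500 bp downstream of a single-strand TSS, 1027 peaks within 500 bp of a TSS that had an opposite-strand TSS nearby, and 3231 peaks over 500 bp from any TSS. The data are chromatin immunoprecipitation with sequencing (ChIP-seq) in 2 biological replicates, which form 1 group. Per the labels, the flies were a transgenic line that stably expressed Ssrp with GFP fused at its C-terminal end, the precipitating antibody was against GFP, and the embryos were 0 to 16 h old, of pooled sexes. No untagged or input sample was analysed here, and read depth is unknown. In pooled whole embryos a peak carried by few nuclei cannot be told apart from one with little Ssrp in each nucleus.

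Ssrp and Spt16, which is encoded by dre4 in the fly, form FACT, a histone chaperone. FACT loosens the contacts between histones and DNA and helps to put nucleosomes back when polymerases pass. Active promoters commonly carry a stretch depleted of nucleosomes just upstream of the TSS. Long runs of A alone, or of T alone, in that stretch are known to resist wrapping into nucleosomes. Fly promoters also commonly hold short sequence elements, among them GA repeats bound by GAGA factor, which is encoded by Trl, the TATA box that positions polymerase close to the TSS, and the element of the factor DREF.

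The sequences around the summits show the feature most members shared, a stretch rich in A and T. The 6 members of highest signal whose surroundings hold no annotated exon are given first, off the chromosome arm whose sequence is not shown here. Each window spans 80 bp to either side of the summit, which is base 81, in the dm6 assembly and on the strand of the gene. Capitals mark unbroken runs of A and T, in any order, of at least 10 bp, wherever they lay in the window. The window of CG14100 covers chr3L:19590541-19590701 (minus strand), that of ph-p chrX:2137258-2137418 (minus), that of CG18549 chr3R:12449089-12449249 (plus), that of CG31145 chr3R:23669779-23669939 (minus), that of RluA-1 chr2L:10474450-10474610 (minus) and that of msi chr3R:25515807-25515967 (plus).
CG14100: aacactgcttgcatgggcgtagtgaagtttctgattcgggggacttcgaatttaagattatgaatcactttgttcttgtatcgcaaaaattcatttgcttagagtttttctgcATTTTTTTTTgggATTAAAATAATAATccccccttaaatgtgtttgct
ph-p: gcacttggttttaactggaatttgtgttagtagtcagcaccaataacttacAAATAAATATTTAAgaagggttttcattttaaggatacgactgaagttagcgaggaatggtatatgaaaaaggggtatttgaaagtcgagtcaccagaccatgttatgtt
CG18549: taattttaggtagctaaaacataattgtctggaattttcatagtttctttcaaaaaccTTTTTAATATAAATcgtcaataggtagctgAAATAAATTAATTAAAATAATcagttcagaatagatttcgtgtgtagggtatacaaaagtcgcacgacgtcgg
CG31145: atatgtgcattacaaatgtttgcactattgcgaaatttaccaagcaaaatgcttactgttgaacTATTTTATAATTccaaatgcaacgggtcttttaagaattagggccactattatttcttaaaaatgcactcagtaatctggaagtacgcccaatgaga
RluA-1: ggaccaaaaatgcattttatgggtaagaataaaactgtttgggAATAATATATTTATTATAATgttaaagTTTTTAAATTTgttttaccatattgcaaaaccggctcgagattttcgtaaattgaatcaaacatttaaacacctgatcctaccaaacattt
msi: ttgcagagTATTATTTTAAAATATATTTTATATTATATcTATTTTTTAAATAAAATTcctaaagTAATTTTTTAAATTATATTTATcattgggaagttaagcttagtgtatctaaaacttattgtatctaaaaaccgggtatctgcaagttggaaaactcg
The longest run was 30 bp in msi, 21 bp in CG18549, 20 bp in RluA-1, 14 bp in both CG14100 and ph-p, and 12 bp in CG31145. GC content over the whole window was 21.7% in msi and 34.8% in CG14100 and ph-p. Over the summit with 50 bp to either side it was little lower, at 16.8% in msi and 31.7% in CG14100 and ph-p. The strongest peak of all therefore had neither the longest run nor the lowest GC content of the 6.

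For comparison, 2 members near the median signal are shown in the same way. They are pico, which encodes an adaptor that binds Ena, at chrX:19848613-19848773 (minus strand), and asl, which encodes the centriole protein Asterless, at chr3R:5606629-5606789 (minus).
pico: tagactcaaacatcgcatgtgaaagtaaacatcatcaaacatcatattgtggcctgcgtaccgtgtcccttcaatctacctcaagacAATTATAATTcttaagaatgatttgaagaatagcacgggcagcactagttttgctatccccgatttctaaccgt
asl: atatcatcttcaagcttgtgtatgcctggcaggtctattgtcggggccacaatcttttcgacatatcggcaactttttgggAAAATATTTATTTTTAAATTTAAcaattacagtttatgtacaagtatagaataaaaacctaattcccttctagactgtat
The longest run was 23 bp in asl and 10 bp in pico, and GC content over the window was 32.9% in asl and 39.8% in pico. Over the summit with 50 bp to either side it was 30.7% in asl and 39.6% in pico, so the centre of pico hardly differed from its window.

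A further element lay nearer the TSS. Among the members of highest signal with an exon-free 100 bp before the TSS, msi, E23 and gish are the first 3 protein-coding genes with GAGAG on either strand there. E23 encodes an ABC transporter and gish a casein kinase. The windows are chr3R:25516018-25516117 (plus strand) for msi, chr2L:3354830-3354929 (minus) for E23 and chr3R:16280789-16280888 (plus) for gish. Capitals mark GAGAG or its complement CTCTC, and the last base of each line is the one before the TSS.
msi: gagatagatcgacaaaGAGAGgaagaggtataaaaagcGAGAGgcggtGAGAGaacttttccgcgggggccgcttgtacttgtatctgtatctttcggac
E23: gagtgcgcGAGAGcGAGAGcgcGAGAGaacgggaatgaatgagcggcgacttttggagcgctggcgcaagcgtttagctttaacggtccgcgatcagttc
gish: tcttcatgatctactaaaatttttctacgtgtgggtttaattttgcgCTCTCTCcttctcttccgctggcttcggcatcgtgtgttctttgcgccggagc
These stretches held 49%, 59% and 47% GC for msi, E23 and gish. The 50 bp to either side of the summits of the same 3 peaks, 231, 254 and 138 bp upstream, held 16.8%, 26.7% and 24.8% GC.

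The members covered the whole range of signal in the list, with a somewhat higher median. The deposited signal, whose scale differs between lists, had a median of 330.9 in the members, with quartiles of 219.9 and 667.3 and the same range as the list, 157.0 to 5979. The median over the whole list was 291.7. Members made up 31 of the 100 strongest peaks, and 545 members (55.9%) lay among the stronger 2722 peaks. Their median was 1.13 times that of the list. In the 5445 strongest peaks of each replicate taken alone the ratio was 1.11 in replicate 1 and 1.13 in replicate 2, a mean of 1.12 ± 0.015 (SD, n = 2). Peaks downstream of single-strand TSSs had a median signal of 266.7, peaks at TSSs with an opposite-strand neighbour 338.0, and peaks far from TSSs 270.4. In the replicate lists the ratio to the list was 0.832 and 0.998 for the downstream peaks, against 1.15 and 1.20 for the peaks with an opposite-strand neighbour. The members thus lay above the downstream peaks and below those with an opposite-strand neighbour in each replicate. The deposited −log10 of the q-value did not separate members further, because 692 of them (71.0%), against 65.5% of the list, had its highest value of 3.85.

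The 15 strongest members marked genes of mixed function. CG14100, whose peak was first in the IDR list and in both replicate lists, had 5979 in the IDR list, 2646 in replicate 1 and 3364 in replicate 2. The second was px, which encodes the wing vein protein Plexus, with 4390 in the IDR list, 2085 in replicate 1 and 2318 in replicate 2. The third was ph-p, which encodes the Polycomb group protein Polyhomeotic proximal, with 4005 in the IDR list, 1829 in replicate 1 and 2251 in replicate 2. All 3 were among the 6 strongest peaks of each list. CG18549 followed with 3472 in the IDR list, 1694 in replicate 1 and 1789 in replicate 2. Fkbp14, a peptidyl-prolyl isomerase gene, had 3305 in the IDR list, 1697 in replicate 1 and 1622 in replicate 2. The other members of the 15 were CG31145, cu (curled, related to the deadenylase nocturnin), CG1888, RluA-1 (a pseudouridine synthase), msi (the RNA-binding protein Musashi), Tina-1, Fhos (a formin), E23, gish and the noncoding lncRNA:CR44339, with signals between 2390 and 3062. Within each of the 15, the summits of the replicate peaks lay at most 24 bp from that of the IDR peak.

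**Figure D1:**
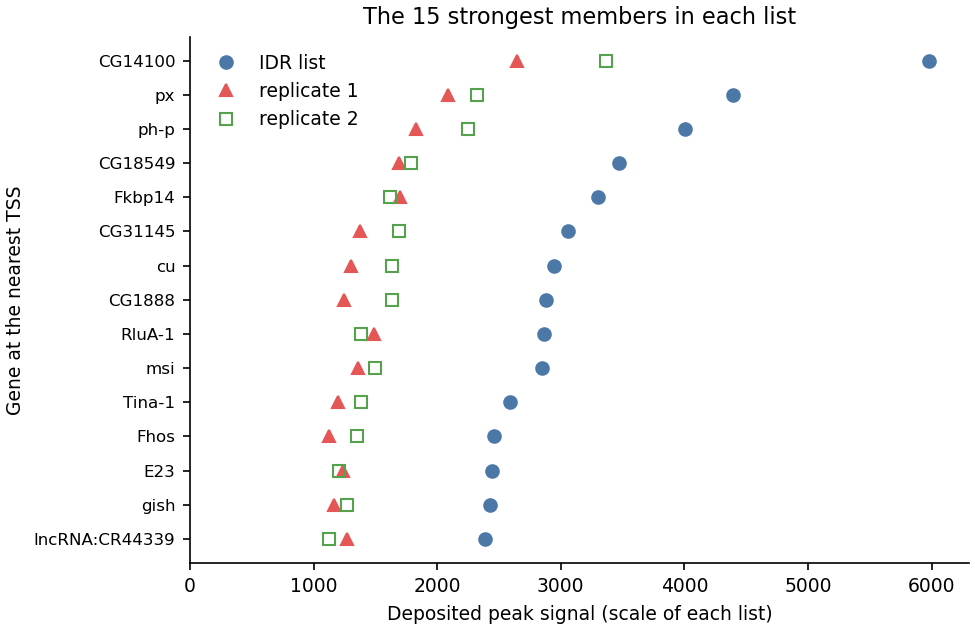
Deposited peak signal of the 15 strongest members (horizontal axis, on the scale of each list) in the IDR list (filled circles), replicate 1 (triangles) and replicate 2 (open squares). CG14100 was highest in all 3 lists, and the order of the other genes was similar but not identical in the replicates.

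The summits were concentrated 100 to 350 bp upstream of the TSS. The bands below exclude their near end and include their far end. The median position was -214 bp and the quartiles were -316 and -142 bp. The medians in the replicate lists were -216 and -218 bp, from 979 and 980 peaks placed in the same way. The 100 to 350 bp zone held 673 members (69.0%), the first 100 bp 128 members (13.1%) and the last 150 bp 174 members (17.8%). The fullest 50 bp band was 150 to 200 bp upstream, with 163 members, and the emptiest was the one next to the TSS, with 45 members. Signal was low next to the TSS but, unlike the counts, did not drop in the same way at the far end. Its median was 228.1 within 100 bp of the TSS, 365.3 at 100 to 350 bp and 338.3 beyond. In single 50 bp bands it was 226.6 next to the TSS, highest at 399.4 at 300 to 350 bp, and 325.4 at 450 to 500 bp. Across the 975 members the rank correlation of signal with distance was weak (Spearman's rho 0.13). The strongest member of each 100 bp band was CG14100 at -97 bp, CG18549 at -127 bp, px at -202 bp, Fhos at -302 bp and ph-p at -483 bp. A very strong peak was therefore present in every band.

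**Figure D2:**
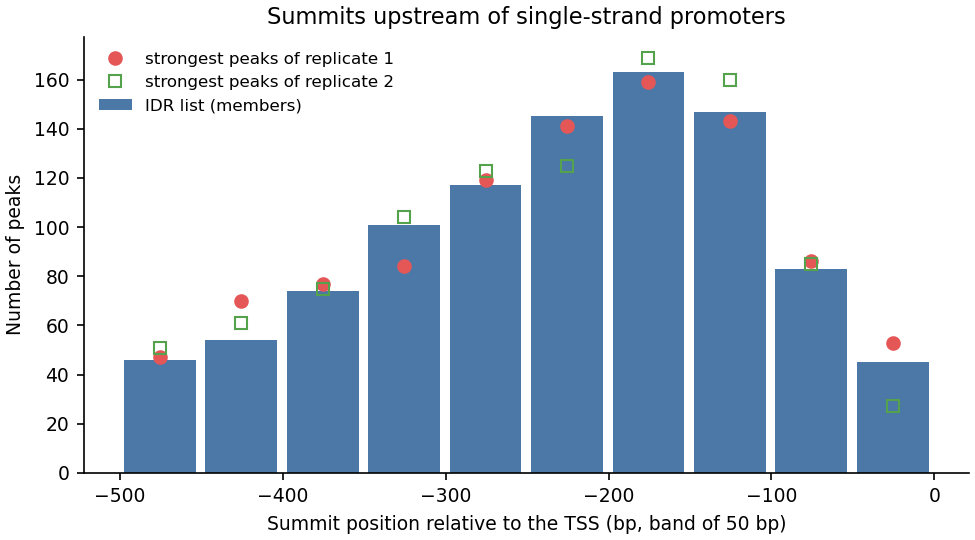
Number of peaks (vertical axis) by summit position relative to the TSS in 50 bp bands (horizontal axis, bp), for the 975 members (bars) and for peaks placed alike among the strongest 5445 of replicate 1 (circles) and replicate 2 (squares). Both replicates share the rise to the 150 to 200 bp band and the low count next to the TSS.

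Position also went with how often an upstream peak was strong enough to be in the IDR list. The pooled list of 30000 peaks held 2951 peaks placed as the members are, and 975 of these were in the IDR list, which is 33.0% (95% Wilson interval 31.4 to 34.8%), against a background of 18.1% for all pooled peaks. The other 1976 were weaker. The share was 11.2% for pooled peaks downstream of single-strand TSSs (9.89 to 12.8%), 37.7% for those with an opposite-strand TSS nearby (35.9 to 39.5%), and 14.4% for those far from TSSs (13.9 to 14.9%). Within the upstream zone it was 14.7% in the 50 bp next to the TSS (11.2 to 19.1%), 42.6% at 100 to 150 bp (37.5 to 47.9%), 43.3% at 200 to 250 bp (38.1 to 48.6%) and 25.3% at 450 to 500 bp (19.5 to 32.1%). The next-to-TSS interval does not meet those of the bands between 100 and 500 bp. In the replicate lists, the share of upstream peaks that were among the strongest 5445 was 16.3% and 12.1% next to the TSS, 40.5% and 43.7% at 100 to 150 bp, and 23.7% and 29.3% at 450 to 500 bp in replicates 1 and 2. Peaks beside the TSS were as numerous in the pooled list, at 306, as those of the band at 250 to 300 bp, at 302, so that band held as many peaks but fewer strong ones.

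**Figure D3:**
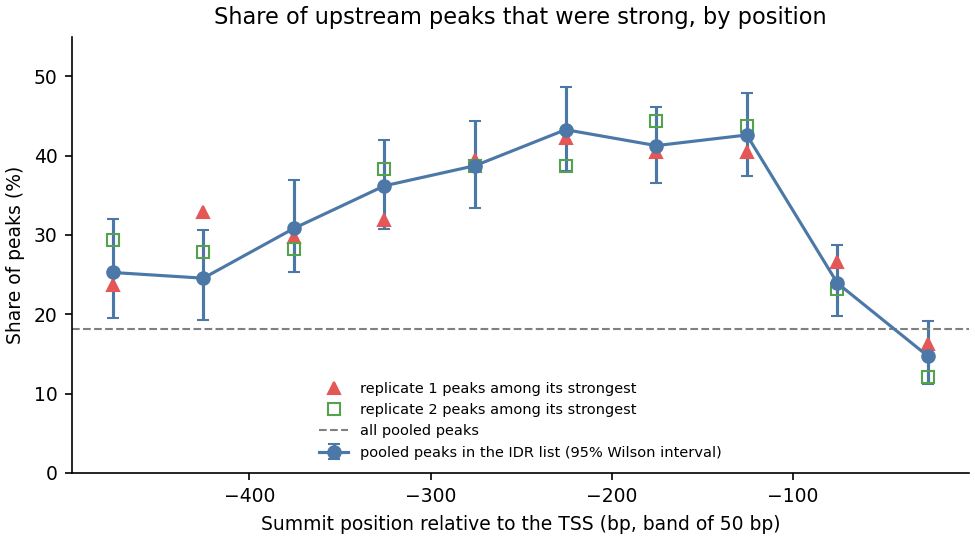
Share of peaks upstream of single-strand TSSs that were strong (vertical axis, %), by summit position in 50 bp bands (horizontal axis, bp): pooled peaks in the IDR list with 95% Wilson intervals (filled circles), and peaks of replicate 1 (triangles) and replicate 2 (open squares) among their strongest 5445. The dashed line is the 18.1% of all pooled peaks, and the share was below it only in the band next to the TSS.

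The IDR list was made from these same 2 replicates, so finding its peaks in them is in part fixed by that choice and is given as a description. Set against the strongest 5445 peaks of each replicate, 640 members (65.6%, Wilson interval 62.6 to 68.6%) had a partner in both that shared at least 50% of each peak, against a background of 59.2% of all IDR peaks. A partner was found for 740 members in replicate 1 and for 834 in replicate 2. The rule depends on peak width, because 396 bp was the width of 49.8% of members and 55.2% of the list and the others ran from 99 bp upwards. In the third quartile group of members by signal, where the median width was 220.5 bp, 54.9% met the rule, against 74.6% in the second, where it was 396 bp. With any shared base instead, 819 members (84.0%) were found in both, against 80.5% of the list. By quartile group of signal, from weakest to strongest, this share was 43.6%, 95.5%, 98.0% and 98.8%, so most of the members not found again were weak. Taking every peak of the replicate lists, 960 members (98.5%) touched a peak in both. The signals of those 960 in the 2 replicates had a rank correlation of 0.90, against 0.85 over the list, which the same choice also favours. Both replicate lists also derive in part from 1 further alignment. Replicate summits lay a median of 4 bp (replicate 1) and 12 bp (replicate 2) from the IDR summit.

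Members lay between genes more often than within them, which the choice of summits upstream of a TSS in part sets. The same shares were not taken over all single-strand TSSs, so those below only describe the members. Between genes lay 551 members (56.5%), with a median signal of 316.1. In an intron of the gene whose TSS was nearest lay 293 (30.1%), with a median signal of 374.6 and a median position of -272 bp, upstream of a TSS inside that gene. Another 71 lay in an intron and 39 in an exon of some other gene, and 21 in an exon of the same gene. In all, 661 members (67.8%) were at the most 5′ TSS of their gene, with a median signal of 311.9, and 314 (32.2%) at an internal one, with a median of 389.1. The share at the most 5′ TSS was 72.8% in the weakest quartile group of members and 59.4% in the strongest. Of the 15 strongest members, px, ph-p, Fkbp14, CG1888, Fhos and gish were at internal TSSs. Another IDR summit lay within 1000 bp of 168 members (17.2%), against 18.7% of the list, and 11 member TSSs also had an IDR summit downstream.

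The genes marked were mostly protein-coding. At the median, those were longer and had more transcripts than other protein-coding genes with a single-strand TSS. Protein-coding TSSs took 895 members and noncoding RNA TSSs 75, with a median signal of 331.0 and 315.1. The rest lay at 2 TSSs shared by both kinds of gene, a pseudogene (CR31032, signal 233.7), a spliceosomal U6 RNA (snRNA:U6:96Ac, 211.3) and a transfer RNA (tRNA:Gln-TTG-2-1, 709.2). Of the 9059 protein-coding genes with a single-strand TSS, 851 had a member, a background of 9.39%. Those 851 genes had a median length of 6377 bp and a median of 3 transcripts, against 2140 bp and 1 transcript in the other 8208. The share of genes with a member was 29.7% of genes with 3 or more such TSSs (Wilson interval 26.4 to 33.3%), 14.7% of those with 2 (13 to 16.6%) and 6.24% of those with 1 (5.69 to 6.83%). Of the 851 genes with a member, 430 nevertheless had only 1 such TSS and 203 had 3 or more, and 170 were over 20 kb long. More TSSs give more places for a member, so length was also looked at among genes with 1 TSS. There the share was 8.74% above 20 kb (6.38 to 11.9%), 12.9% at 5 to 20 kb (11.0 to 15.1%) and 4.79% up to 5 kb (4.25 to 5.39%). Of 1446 long noncoding RNA genes with a single-strand TSS, 63 had a member (4.36%, 3.42 to 5.54%).

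The 2 genes of FACT differ in their promoter arrangement. dre4, which encodes Spt16, had its nearest opposite-strand TSS 6193 bp away and had a member at -188 bp, and its signal was 311.9 in the IDR list (place 2504 of 5445), 110.8 in replicate 1 and 190.3 in replicate 2. That signal is near the median of the members. Ssrp had an opposite-strand TSS 232 bp away and so had no TSS of the single-strand kind.

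Of the 21 gene lists, 11 had a share of genes with a member at or above the background of 9.39%, and 5 had no member. Most lists hold few genes with a single-strand TSS, and their intervals are wide. Of 92 cytosolic ribosomal protein genes 39 had a single-strand TSS, and 11 of these had a member (28.2%, 16.5 to 43.8%), with a median signal of 257.8, against 346.7 in all protein-coding genes with a member, and a median position of -44 bp, against -214 bp. Their summits averaged 41.9% GC, against 29.8%. RpL23A, the strongest, had 476.6 in the IDR list, 248.7 in replicate 1 and 230.8 in replicate 2, with 53.5% GC at -93 bp. RpS10b and RpS27A, which shares its TSS with Ip259, followed with 316.2 and 304.3 in the IDR list. The general transcription factors had 3 of 9, Taf4 (495.4), TfIIEbeta (209.3) and Tfb1 (160.7), a share of 33.3% (12.1 to 64.6%). Mediator, the bridge between activators and polymerase, had 2 of 9 (MED21 and Cdk8; 22.2%, 6.32 to 54.7%). Translation factors had 3 of 28 (eEF1gamma, eIF2D and eIF4A; 10.7%, 3.71 to 27.2%) and constitutive chaperones 2 of 6 (Hsp60A and Hsc70-3; 33.3%, 9.68 to 70%). The elongation factors and histone chaperones had 1 of 4, which was dre4 (25%, 4.56 to 69.9%). The intervals of Mediator, translation factors and elongation factors held the background.

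In the other housekeeping groups the interval of the share also held the background, so none stood apart from it. Mitochondrial ribosomal protein genes had 1 of 15 (mRpL19; 6.67%, 1.19 to 29.8%), and proteasome genes 1 of 23 (Rpn11, the deubiquitinase of the lid, at 422.2; 4.35%, 0.772 to 21.0%). Genes of the respiratory chain and ATP synthase had 2 of 43 (ND-B22 and ND-20, at 166.2 and 157.3; 4.65%, 1.29 to 15.5%), and genes of replication and the cell cycle 2 of 20 (dap, a cyclin-dependent kinase inhibitor, and CycD; 10%, 2.79 to 30.1%). No member was found for 5 chromatin remodellers, 5 splicing factors or 4 insulator and promoter-binding proteins, and a count of 0 in so few genes (a limit of 3 counts) allows shares of up to 60%, 60% and 75%.

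Developmental genes with a member had signals far apart from each other. The neurogenic and proneural group had 5 of 18 (27.8%, 12.5 to 50.9%): numb, an inhibitor of Notch, E(spl)m7-HLH, a target of Notch, the receptor gene N itself, and brat and mira, both of asymmetric neuroblast division. Their median signal was 223.4, against 346.7 in all protein-coding genes with a member. The list does not hold every gene of this kind. The related genes neur, gro and E(spl)m2-BFM were outside it and had members with signals above 346.7, so the median describes the listed genes only. numb had 1959 in the IDR list, 884.7 in replicate 1 and 1077 in replicate 2, whereas N had 223.4 in the IDR list, 140.6 in replicate 1 and 94.1 in replicate 2. E(spl)m7-HLH had 1264 in the IDR list, brat 198.1, and mira, the weakest of the 5, ranked 5295 of 5445. The 5 listed genes thus held 2 signals above the members' median and 3 below it. Muscle structural genes had 3 of 22 (13.6%, 4.75 to 33.3%), Msp300 (a nesprin, 991.9), sls (Sallimus, of titin kind, 924.7) and Tm1 (tropomyosin, 630.5). elav, the neuronal RNA-binding protein gene, was the 1 of 20 differentiated neuron genes (5%, 0.888 to 23.6%), with 1523 in the IDR list, 719.5 in replicate 1 and 810.8 in replicate 2, at a TSS it shares with lncRNA:enrr. The Polycomb and trithorax group had 2 of 13 (15.4%, 4.33 to 42.2%), ph-p and its neighbouring copy ph-d, whose signals were 4005 and 225.7. Hox, gap, pair-rule and segment polarity genes had 2 of 27 (7.41%, 2.06 to 23.4%), nkd (an inhibitor of Wnt signalling, 680.6) and ptc (the Hedgehog receptor, 195.9). Hsp27 was the 1 of 9 heat shock genes (11.1%, 1.99 to 43.5%), with 1749 in the IDR list, 710.6 in replicate 1 and 1052 in replicate 2, and the labels name no heat treatment. In the muscle, neuron, Polycomb and trithorax, segmentation and heat shock lists the interval held the background. None of 152 chemoreceptor genes had a member, with an interval up to 2.47%, and none of the cuticle protein genes, with an interval up to 3.66%.

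The base composition at the summits was low in GC on average and resembled that of the other IDR peaks. The summit with 50 bp to either side held 29.9 ± 8.17% GC (SD over the 975 members), against 30.0 ± 7.96% over the list. Flank windows of the same length were centred 600 bp from the summit. They held 40.7% GC on the upstream side and 45.8% on the side of the gene. At the summit, 715 members (73.3%) were lower in GC than in both flank windows, against 73.5% of the list. The mean at the summit was 30.8% in replicate 1 and 29.2% in replicate 2. Read along transcription, A made up 35.7% and T 35.0% of the 50 bp before the summit, against 33.8% A and 35.6% T in the 50 bp after it. A run of A and T, in any order, of at least 10 bp was present at 663 summits (68.0%), against 65.0% of the list. AAAAAAAA on either strand, a run of 1 base only, was at 9.74% of members' summits, against 9.44% of the list. The median longest run was 11 bp at the summit and 7 bp in the flank, and the highest was 41 bp. Stronger members were poorer in GC, with 32.4%, 31.9%, 28.2% and 27.3% from the weakest to the strongest quartile group, and the rank correlation of signal with GC was -0.27 over the 975 members. The 45 members within 50 bp of the TSS were the richest in GC at 41.3%, against 33.5% at 50 to 100 bp and 28.2 to 31.2% in the bands beyond. Peak calls can depend on base composition through amplification and mapping, and its part in these values was not tested.

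**Figure D4:**
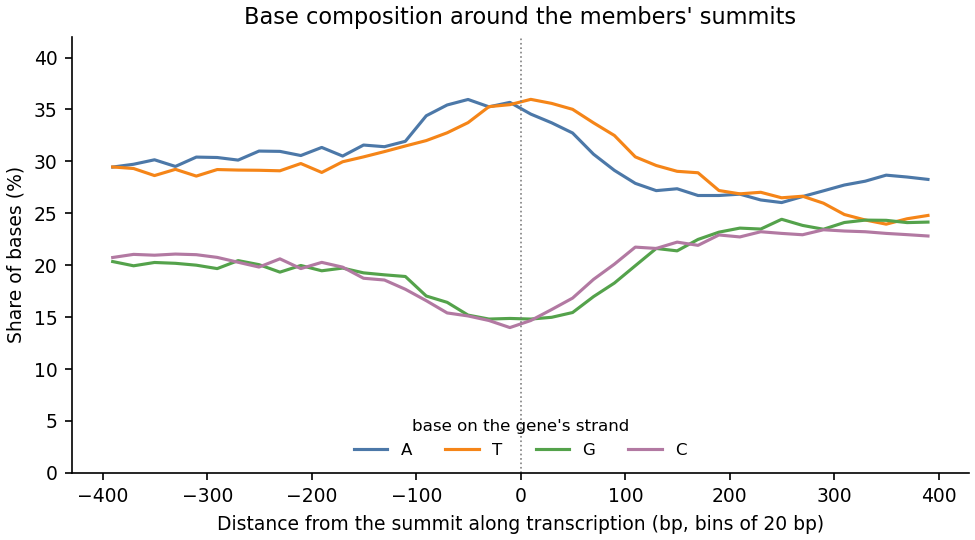
Share of each base (vertical axis, %) in 20 bp bins around the summits of the 975 members (horizontal axis, bp along the direction of transcription). A and T rise to about 35% each at the summit while G and C drop to about 15% each, and the side of the gene is richer in G and C than the far side.

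The promoters of genes with a member were set beside those of other genes through 1 single-strand TSS per protein-coding gene. There were 851 genes with a member, 1328 with only a weaker pooled peak upstream, and 6880 with neither, for which the most 5′ single-strand TSS was taken. Genes with a member were chosen for an IDR summit in the upstream zone, and such summits are poor in GC throughout the list, so the upstream values restate that in part. Between -300 and -251 bp it held 33.5% GC in genes with a member, 35.4% in genes with a weaker peak and 38.4% in genes with neither. Next to the TSS the order was the opposite, with 48.0%, 45.3% and 42.6% in the last 50 bp for genes with a member, with a weaker peak and with neither. The last 50 bp holds few of the members' summits, 45 of 975.

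GAGAG on either strand, the core of the repeat that GAGA factor binds, was more frequent next to the TSS of genes with a member, but not only there. It was present in the 100 bp before the TSS in 28.1% of the 851 genes with a member (25.2 to 31.2%), 16.6% of genes with a weaker peak (14.7 to 18.7%) and 14.7% of genes with neither (13.9 to 15.5%), and in 16.2% of all 9059. When the genes were chosen from each replicate list alone the shares were 27.2 ± 0.97% with a member and 14.9 ± 0.079% in all other genes (SD, n = 2). The 7-letter GAGAGAG was present in 9.05% of genes with a member, against 3.03% of all others. Among members the share with GAGAG before the TSS was 21.8%, 24.2%, 27.9% and 39.8% from the weakest to the strongest quartile group of signal. The share of members at the most 5′ TSS fell from 72.8% to 59.4% between these same outer groups, and its part in the rise was not tested. The difference from other genes was smaller for members at the most 5′ TSS of their gene, with 23.5% against 15.3%, and for members between genes, with 22.2% against 15.5%. At the summits themselves GAGAG was about as frequent as at those of all IDR peaks, and rarer than before and after the members' summits. It was in 7.18% of the members' summit windows, the same 50 bp to either side, 7.29% of those of all IDR peaks, and 13.2% and 13.8% of windows of the same length before and after the members' summits.

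The TATA box was rarer in those promoters. TATAAA on either strand lay in the last 50 bp before the TSS in 5.29% of genes with a member, 8.66% of genes with a weaker peak and 16.0% of genes with neither. By replicate lists it was 4.91 ± 0.21% with a member and 14.9 ± 0.024% in all other genes (SD, n = 2). At the A- and T-rich summits, in the longer window of 50 bp to either side, the same 6 letters were present in 27.3% of members. They were in 28.0% of all IDR peaks, and in 13.9% of windows before and 7.79% of windows after the members' summits. In the 100 bp before the TSS, a window of about that length, they were in 10.5% of genes with a member and 22.9% with neither. In genes with a member they were thus rarer before the TSS than at the summit. TATCGATA, the DREF element, lay in the 100 bp before the TSS in 3.41% of genes with a member (2.38 to 4.85%), 6.85% of genes with a weaker peak (5.61 to 8.34%), 2.81% of genes with neither and 3.46% of all. It was thus most frequent beside the weaker peaks. A match of letters describes the sequence and does not show that a factor was bound.

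**Figure D5:**
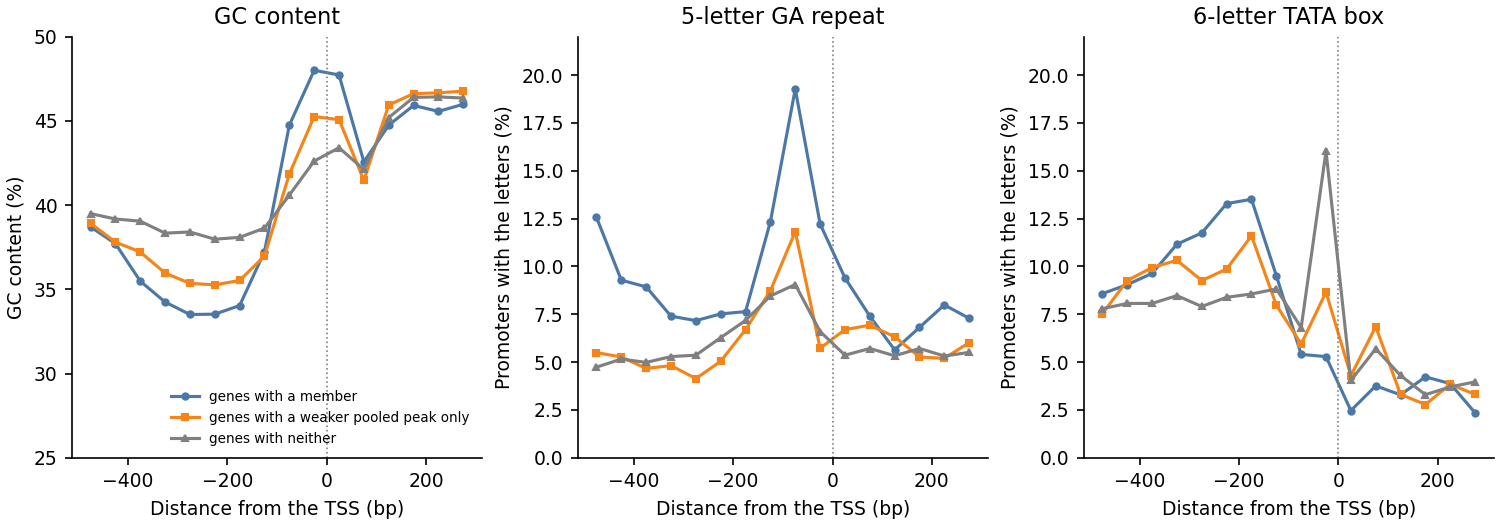
GC content, promoters with GAGAG and promoters with TATAAA (vertical axes, %) in 50 bp windows by distance from the TSS (horizontal axes, bp), for protein-coding genes with a member (circles), with a weaker pooled peak only (squares) and with neither (triangles). Genes with a member have the lowest upstream GC, which the choice by summit in part sets, and the highest GAGAG share just before the TSS, and lack the TATAAA maximum of 16.0% seen in genes with neither.

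The peaks nearest the edges of the rule, 3 on each side, were as follows. At the far end asRNA:CR45868, CG3630 and CG2201 were just inside at -498, -498 and -497 bp, with signals of 256.9, 285.1 and 264.8, while peb, Npc2b and stv were just outside at -501, -501 and -502 bp, with 706.4, 209.9 and 195.0. At the TSS CG4497, RpS23 and Parp16 were just inside at -1, -1 and -2 bp, with 1106, 210.7 and 157.1, while RpL10, lncRNA:CR43949 and CG1620 were just outside, 1, 3 and 5 bp downstream of the TSS, with 159.6, 265.2 and 290.8. By distance to the opposite-strand TSS, Eno (1015 bp), the TSS of CG42245 and MEP-1 (1022 bp) and me31B (1024 bp) were just inside, with signals of 1531, 186.3 and 237.8. The TSS of CG46456 and lama (997 bp), tim (994 bp) and Ance (984 bp) were just outside, with 870.3, 250.9 and 172.5. Signals were scattered on both sides of each edge, and so few peaks do not show whether signal breaks there.

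By chromosome, the share of single-strand TSSs with a member was 7.57% on X, 6.45% on 2L, 6.21% on 3R, 5.90% on 3L and 5.35% on 2R. On chromosome 4 it was 1.64%, or 2 of 122. The IDR list held no peak anywhere on Y, so its 109 single-strand TSSs are not informative. The median signal of members ran from 323.2 on X to 359.2 on 3L among the 5 large chromosomes and arms.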

How the data were processed

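ChIP-seq of GFP-tagged Ssrp was made in 2 samples that the labels call biological replicates, each from a biosample of its own. Chromatin was sonicated to a size range of 200 to 800, per the labels. The authors deposited 4 peak lists on dm6: 1 for each replicate, a pooled list and the list that passed the IDR. The signal column the authors deposited has a different scale in each list and serves here to rank and describe peaks of that list. The deposited −log10 q-value column is capped. Not given in the sources used here are the aligner, the peak caller and the IDR threshold. Any loss through mapping or duplicate filters cannot be seen in such lists, and read depth is unknown.

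Genes and TSSs came from Ensembl release 115 (18277 genes, 23697 TSSs, of which 15448 were single-strand), and sequence from the RefSeq release 6 assembly, the same build. Each summit was placed by its nearest TSS, and 2 members whose summit lay outside their peak were set to its nearest base. For the spread between replicates, each replicate list was cut to its 5445 strongest peaks. A replicate value of a member is that of the strongest replicate peak touching it. Motifs were sought on both strands. A further summit window near the median signal is not reported here. Intervals are Wilson, 95%, and cover counting error only; peaks and genes are not replicates, and with 1 group no test was made. Scripts used Python 3.11.15, numpy 2.4.6 and pandas 2.3.3, and the placement was tested on simulated data.

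The members, the 21 gene lists, the elements and the alternatives were chosen with earlier results of these data known. Of the listed symbols, 20 had no protein-coding gene in the annotation. Genes named were the 15 strongest members, up to 3 members per list by signal, the strongest member of each 100 bp band, the FACT genes and the members at the edges of the rule. brat and mira were named beyond that rule, to complete a count of 5, after their values were seen. So were neur, gro and E(spl)m2-BFM, to mark the limits of a list. Alternatives were each replicate alone, the stronger 50% of IDR peaks, a 250 bp upstream window, opposite-strand windows of 500 and 2000 bp, protein-coding or most 5′ TSSs only, other summit windows and other overlap rules.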

Additional observations from a re-analysis of the deposited data

How the results depend on the processing

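No paired analysis was possible because the 2 replicates form 1 group. The ratios of signal and of GAGAG stayed above 1 and that of TATAAA below 1 in every setting tried. The median position is negative by the rule, so its sign could not change. The number of members was 979 to 980 in the replicates alone, 545 in the stronger 50% of IDR peaks and 583 with a 250 bp window. It was 784 and 1201 with opposite-strand windows of 2000 and 500 bp, 989 with protein-coding TSSs and 700 with most 5′ TSSs. The median position was -218 to -216 bp in the replicates alone, -229 bp in the stronger 50%, -156 bp with the 250 bp window, -220 and -207 bp with opposite-strand windows of 2000 and 500 bp, -216 bp with protein-coding TSSs and -196 bp with most 5′ TSSs. The signal ratio to the list was 1.11 to 1.13 in the replicates alone and, in the same order of the other settings, 1.27, 1.08, 1.15, 1.11 and, with most 5′ TSSs, 1.07. GC at summits was 29.2 to 30.8% in the replicates alone, 28.2% in the stronger 50% and 32.1% over 100 bp to either side. The share of single-strand genes with a member was 9.37 to 9.50% in the replicates alone, 5.41% in the stronger 50%, 5.77% with 250 bp, 9.11 and 10.1% with 2000 and 500 bp, 9.78% with protein-coding TSSs and 7.28% with most 5′ TSSs. The IDR share of pooled peaks was 34.8% with protein-coding TSSs. The share found in both replicates was 72.5% in the stronger 50%, 84.0% with any overlap, 45.7% with 80% overlap and 81.0% against whole replicate lists. Settings added after seeing the data gave GAGAG ratios between genes with a member and other genes of 1.44 to 1.87 against 1.89, and TATAAA ratios of 0.319 to 0.399 against 0.356. The causes of these shifts were not tested, beyond what fewer peaks or another window set by construction. With 2 replicates, an SD is itself imprecise. Peaks are those of a tagged protein with no untagged control analysed here, so signal that does not depend on Ssrp was not measured. Unknown read depth means that a missing peak may be one that was not detectable.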
